A study of Mus musculus with 8 samples.

Results

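Lipoprotein lipase, its helpers, its inhibitor Angptl4, and the receptors and apolipoproteins of the same particles were followed across all arrays of a study of cold exposure in mice. The 8 genes are Angptl4, Lpl, Gpihbp1, Lmf1, Vldlr, Lrp1, Apoc1 and Apoe, out of 15967 named genes on the array. They were taken by symbol, with every probe annotated to them, which gave 15 probes, of which 14 were above background on all 8 arrays and were tested. The remaining probe, the fourth of Vldlr, was not well above background on any array. C57BL/6J mice, an inbred strain, were fed chow, and 2 tissues were sampled: brown adipose tissue, called brown fat here, and the quadriceps, called muscle, with 2 arrays in each of 4 groups. The groups were brown fat of mice held at 4 °C for 4 h, brown fat of mice at room temperature, muscle of mice held at 4 °C for 4 h, and muscle of mice at room temperature. The mice in the cold had food overnight before the exposure and neither food nor bedding during it, and the labels do not say how the mice at room temperature were kept in those hours. The labels give no age, sex or degree value for room temperature, and do not say whether replicates were separate mice or whether both tissues came from the same mice, so p-values measure only how far these samples scatter, which can be technical.

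Lipoprotein lipase, encoded by Lpl, splits triglyceride in chylomicrons and very low density lipoproteins at the wall of capillaries and so frees fatty acids for the tissue below. The enzyme is folded in the endoplasmic reticulum of the parenchymal cell with the help of Lmf1, is carried across the endothelium by Gpihbp1, and is inactivated by Angptl4, a secreted protein whose gene is induced by fasting, glucocorticoids and the fatty acid-sensing PPAR receptors. Vldlr and Lrp1 bind the lipoprotein particles and their remnants, Apoe is a ligand for those receptors, and Apoc1 slows both lipolysis and remnant uptake. Brown fat burns fatty acids for heat and takes up much triglyceride in the cold, and muscle uses the same enzyme to draw on circulating lipid.

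Promoter windows of RefSeq (build GRCm38.p6), each with 250 bases before and 50 after an annotated start, were at hand for 4 of the 8 genes: Lmf1, Vldlr, Lrp1 and Apoe. Vldlr and Lmf1 are shown because they differed between the tissues in opposite directions. The windows of Vldlr are at chr19:27216234-27216533 and chr19:27216770-27217069 and that of Lmf1 is at chr17:25578924-25579223, all on the plus strand. Capitals mark matches, on either strand, to the letters TGTTCT (half-site of the glucocorticoid receptor), GGGCGG (GC box) or CCAAT.
Vldlr, first start: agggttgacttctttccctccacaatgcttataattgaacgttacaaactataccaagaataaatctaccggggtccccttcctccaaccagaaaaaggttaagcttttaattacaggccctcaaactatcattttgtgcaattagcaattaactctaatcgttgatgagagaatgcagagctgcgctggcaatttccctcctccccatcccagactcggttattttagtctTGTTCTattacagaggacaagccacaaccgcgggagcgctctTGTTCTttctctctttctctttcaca
Vldlr, second start: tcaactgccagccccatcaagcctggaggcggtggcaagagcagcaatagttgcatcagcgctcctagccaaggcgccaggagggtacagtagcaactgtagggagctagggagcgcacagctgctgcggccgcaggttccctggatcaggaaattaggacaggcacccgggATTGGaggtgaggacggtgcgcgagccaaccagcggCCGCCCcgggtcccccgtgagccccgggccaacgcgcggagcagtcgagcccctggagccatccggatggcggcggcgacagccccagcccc
Lmf1: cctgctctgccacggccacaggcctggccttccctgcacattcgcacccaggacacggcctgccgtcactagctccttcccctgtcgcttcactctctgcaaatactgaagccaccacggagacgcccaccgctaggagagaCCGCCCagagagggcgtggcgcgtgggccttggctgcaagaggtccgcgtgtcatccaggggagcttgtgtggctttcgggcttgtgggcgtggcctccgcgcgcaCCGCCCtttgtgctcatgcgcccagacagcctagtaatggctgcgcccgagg
The first Vldlr window had a GC content of 43%, the second 68% and that of Lmf1 66.3%, against a median of 52.7% over the 32851 windows of the table. The first Vldlr window held 2 copies of TGTTCT, at positions -18 and 24 counted from 0 at the first transcribed base, a string that occurred in 19% of all windows. The second held CCAAT at position -78 and a GC box at position -42, both read on the other strand. Lmf1 held 2 GC boxes on the other strand, and Lrp1 held 1. GC boxes occurred in 35.7% and CCAAT in 37.4% of all windows. Of the 3 Apoe windows, 1 held 2 overlapping matches to TATAAA (a core promoter box, in 13.6% of all windows) and another held 2 copies of TGTTCT, both on the other strand. No match in any of the 7 windows was found for AGGTCA (nuclear receptor half-site), TCACNCCAC (sterol response element), TGACGTCA (cyclic AMP response element) and ACGTG (hypoxia response core), which occurred in 16.3%, 1.24%, 1.79% and 19.6% of all windows in that order. A match is a string of letters and was not tested for binding.

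Levels are log2 of normalised probe intensity, so that 1 unit is a doubling, and a level of one probe is not comparable with that of another. Differences come from a linear model (limma) over all 8 arrays with Benjamini-Hochberg adjustment over 11946 probes, and past the threshold means an adjusted p below 0.05. Between 10468 and 11280 probes per array were above background, and replicates correlated at 0.978 to 0.996 across tested probes. The number of arrays limits the precision. Groups of 2 arrays often do not overlap. Between cold and room temperature 58.3% of all tested probes did not overlap in brown fat and 53.9% in muscle. Between the tissues it was 85% at room temperature and 82.5% in the cold, so lack of overlap alone says little. A pair of arrays stood apart from its replicate in transcripts of another tissue. On the second array of cold muscle, Ucp1, the uncoupling protein of brown adipocytes, read 14.45, against 9.16 on the first and 6.18 and 5.93 in muscle at room temperature, and the adipocyte hormone gene Adipoq read 13.23, against 11.45, 9.84 and 10.40. On the first array of cold brown fat the muscle actin gene Acta1 read 6.56, against 14.17 on the second and 13.85 and 14.24 in brown fat at room temperature. Summed over 8 muscle markers, normalised signal was 558 and 57798 in cold brown fat, against 46812 and 56798 in brown fat at room temperature. The labelled tissues were otherwise borne out by their markers, with all 6 brown adipocyte markers above background on every brown fat array and all 8 muscle markers on every muscle array. For results that turn on those arrays, the value without them stands beside the main one, and in such bulk samples fewer cells of a type and less RNA per cell cannot be told apart.

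**Figure D1:**
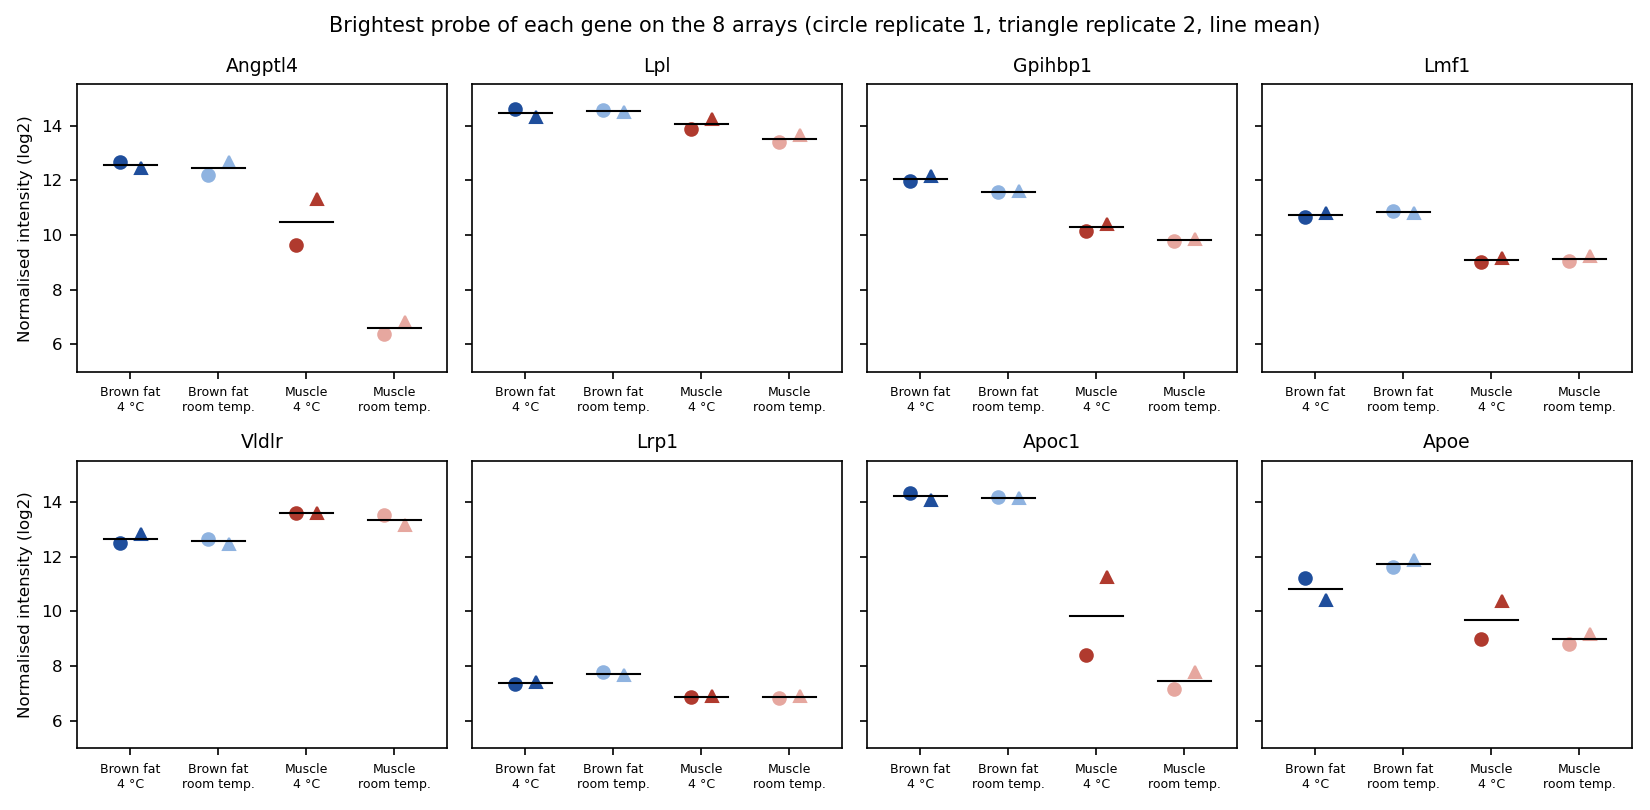
Normalised intensity (log2, vertical axis) of the brightest probe of each of the 8 genes in the 4 groups, 1 point per array, with the group mean as a line. In muscle, Angptl4 read 9.64 and 11.32 in the cold against 6.38 and 6.82 at room temperature, while its brown fat values all lay between 12.20 and 12.68.

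In the cold, Angptl4 was higher in muscle and Gpihbp1 was higher in brown fat, and no other gene of the axis passed the threshold in either tissue. In brown fat 1 of the 14 probes was past the threshold, against 15.4% of all probes, and the median log2 fold change was 0.04 for the 14 probes and 0.01 for all. In muscle it was again 1 of 14, against 3.52% of all probes, with medians of 0.50 and -0.02. The difference between the cold effects was past the threshold for 1 of the 14 probes, against 3.49% of all probes. The number of probes with an unadjusted p under 0.05 was 4 in brown fat and 7 in muscle. Such p-values were common among all probes. Counted from the smallest, the largest of these p-values ranked 3418 of 11946 in brown fat and 2130 in muscle. With the first array of cold brown fat and the second of cold muscle left out together, the brighter Gpihbp1 probe gave 0.57 in brown fat. The brighter Angptl4 probe gave 3.03 in muscle in that fit, both as log2 fold changes.

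Angptl4, the secreted inhibitor of the enzyme, had the largest fitted cold effect of the 8 genes, taking both tissues. Its brighter probe read 9.64 and 11.32 in cold muscle, against 6.38 and 6.82 in muscle at room temperature. Both cold arrays lay well above both room temperature arrays, and the second cold array was far brighter than the first. The difference was 14.7-fold (interval 6.66 to 32.7; log2 fold change 3.88, SE 0.49, adjusted p = 0.0134 by limma, higher on 2 of 2 cold arrays), which ranked 3 by log2 fold change among the 11946 probes. Above it ranked the brown adipocyte genes Ucp1 (log2 fold change 5.75) and Cidea (4.27), neither past the threshold. In raw signal the same probe gave 874.4 and 3127.2 in cold muscle and 135 and 170.4 in muscle at room temperature. The dimmer Angptl4 probe read 6.68 and 7.31 in cold muscle and 5.75 and 5.91 in muscle at room temperature, again without overlap, with a log2 fold change of 1.16 (SE 0.28) that missed the threshold (adjusted p = 0.0751) and passed without the first cold array (1.44, adjusted p = 0.0372). Room temperature values of the dimmer probe lay near the lowest detected levels of those arrays, 5.70 and 5.73. Whether this limited its fold change was not tested. The 2 Angptl4 probes correlated at 0.964 over the 8 arrays, a description over arrays that share 2 tissues.

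In brown fat Angptl4 was high at both temperatures. The brighter probe read 12.68 and 12.45 in the cold, against 12.20 and 12.68 at room temperature, and the groups overlapped. The log2 fold change was 0.13 (interval -1.02 to 1.27, SE 0.49, adjusted p = 0.902), and that of the dimmer probe, which read 8.75 and 8.52 against 7.88 and 8.63, was 0.38 (interval -0.29 to 1.04, adjusted p = 0.419). The cold effect in brown fat was smaller than that in muscle, with a log2 difference between the effects of -3.76 for the brighter probe (SE 0.69, adjusted p = 0.0390). The call was lost when any 1 of the brown fat arrays or of the muscle arrays at room temperature was left out. For the dimmer probe the difference of -0.79 (SE 0.40) missed the threshold (adjusted p = 0.289). The interval of the brown fat effect on the brighter probe, 0.492 to 2.42-fold, did not reach the lower bound of the muscle effect, 6.66-fold.

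The level of Angptl4 thus fell in the order brown fat at either temperature, muscle in the cold, muscle at room temperature. Brown fat exceeded muscle 57.4-fold at room temperature (log2 5.84, SE 0.49, adjusted p = 5.25e-05) and 4.25-fold in the cold (log2 2.09, SE 0.49, adjusted p = 0.00720). The difference in the cold was 7.68-fold (log2 2.94) without the second cold muscle array and 2.38-fold (log2 1.25) without the first, past the threshold both ways. The dimmer probe gave log2 differences of 2.42 (adjusted p = 0.000234) and 1.64 (adjusted p = 0.00170). The neighbours in this order that did not differ beyond their spread were the 2 brown fat groups.

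Some fat transcripts were higher with Angptl4 on both cold muscle arrays, while others were higher on the second only. As a percent of the mean in cold brown fat, Angptl4 signal was 12.9 and 41.9 on the cold muscle arrays and 1.11 and 1.60 on those at room temperature. On the same arrays Adipoq gave 21.4 and 73.5, against 6.89 and 10.2, and the lipid droplet gene Cidec gave 12.4 and 67.7, against 3.26 and 3.99. Fabp4 gave 7.34 and 33.0, against 3.27 and 4.80, and Plin1 2.10 and 14.7, against 1.63 and 1.58. Otop1 gave 1.13 and 10.9, against 1.11 and 1.14. Pparg read 7.54 and 10.52 in log2 level, against 7.32 and 7.59, so neither Otop1 nor Pparg was higher on the first cold array. The brown adipocyte gene Cidea read 7.14 and 13.10 in log2 level in cold muscle, against 5.81 and 5.89 at room temperature, so that Cidea, like Ucp1, was higher on both cold arrays. The Ucp1 and Cidea probes read 14.41 to 14.84 in brown fat, at the top of the range, and whether they were compressed there, which would raise their shares, was not tested. The 7 adipocyte markers on the array summed to 4935 and 20810 in normalised signal in cold muscle, against 1758 and 2344 in muscle at room temperature, and the brown adipocyte markers other than Cox8b, which was as bright in muscle as in brown fat, to 846 and 31613, against 242 and 240 at room temperature, with Elovl3 and Otop1 not above background on the first cold array. None of the 13 markers of both lists, Cox8b included, passed the threshold for the cold effect in muscle, a count near the 3.52% of all probes. Their median log2 fold change was 1.23 for the brown adipocyte list and 1.81 for the adipocyte list, against -0.02 for all probes. The SE was wide where the cold arrays lay far apart, as for Ucp1 (5.75, SE 1.40) and Cidea (4.27, SE 1.57). Without the second cold array the log2 fold change of Angptl4 was 3.03 (adjusted p = 0.00759), and with the first array of cold brown fat left out as well it was 3.03 (adjusted p = 0.00556), with the lone cold muscle array taken to vary as the other groups did. In that last fit Ucp1 (3.10), Cidea (1.30), Cidec (1.74) and Lipe (0.96) also passed the threshold in muscle. The part of fat cells in the Angptl4 result was not tested. The call was lost when either muscle array at room temperature was left out (log2 3.67, adjusted p = 0.0976 without the first, and 4.09, adjusted p = 0.0936 without the second).

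**Figure D2:**
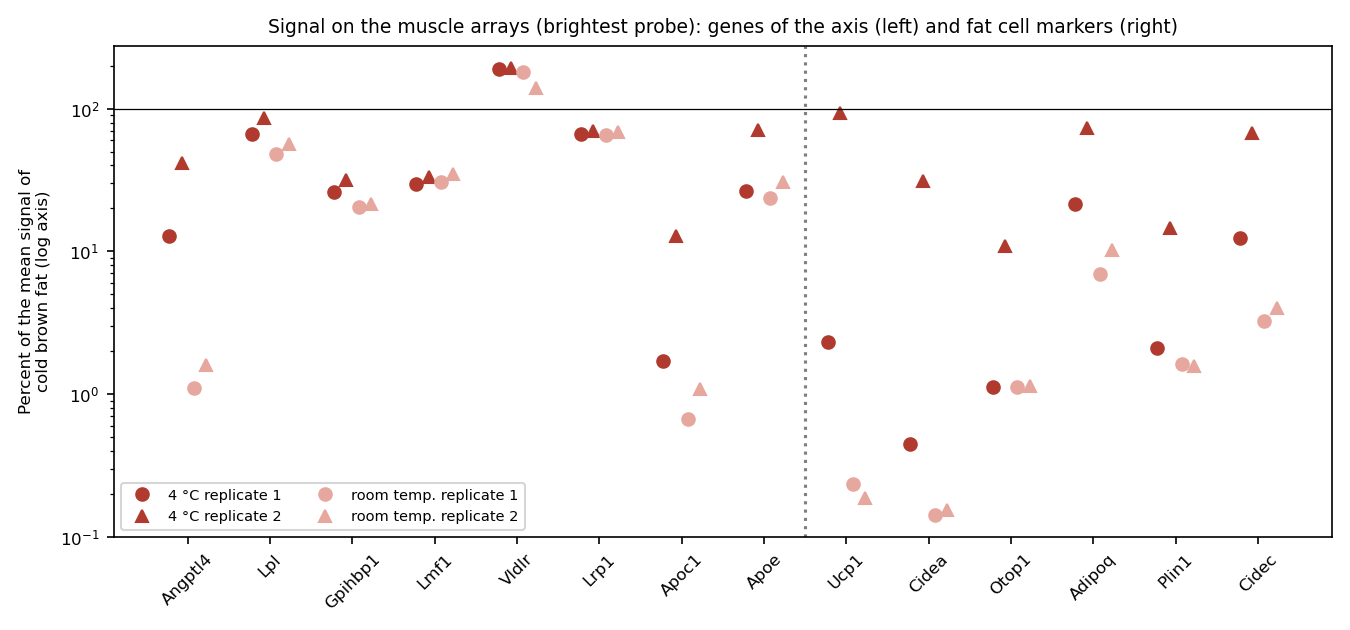
Normalised signal of the brightest probe on each muscle array as a percent of the mean of cold brown fat (log axis), for the 8 genes of the axis and, right of the dotted line, for 6 markers of fat cells. Angptl4 stood at 12.9% and 41.9% on the cold arrays and at 1.11% and 1.60% on those at room temperature, and Vldlr alone among the 8 genes lay above 100%.

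Lpl, the enzyme itself, was bright in both tissues and neither of its probes passed the threshold for cold in the main model. The brighter probe read 14.60 and 14.31 in cold brown fat, against 14.57 and 14.48 in brown fat at room temperature (log2 fold change -0.08, interval -0.47 to 0.32, SE 0.17, adjusted p = 0.813). In muscle it read 13.87 and 14.24 in the cold, against 13.41 and 13.64 at room temperature, higher on both cold arrays (log2 fold change 0.53, SE 0.17, adjusted p = 0.143). That probe was among the brightest on the arrays, at 28.4% to 71.4% of the highest raw signal on its array, and whether its range was compressed was not tested.

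The dimmer Lpl probe gave larger differences in the same tissues. It read 9.63 and 9.29 in cold brown fat and 8.87 and 8.30 in brown fat at room temperature, with both cold arrays higher (log2 fold change 0.88, SE 0.30, adjusted p = 0.0892). On muscle arrays it read 6.68 and 7.51 in the cold, against 5.90 and 5.91 at room temperature (log2 fold change 1.19, SE 0.30, adjusted p = 0.0807). The room temperature values lay near the lowest detected levels of those arrays, 5.70 and 5.73. It passed in both tissues in a fit of all 8 arrays that also allowed for the replicate numbers of the sample descriptions, chosen after seeing the data. Without the second cold muscle array, on which the fat markers were high, the muscle values were 0.35 on the brighter and 0.79 on the dimmer probe, and without the first the dimmer probe gave 1.58 and passed (adjusted p = 0.0161). In brown fat the dimmer probe also passed when either cold muscle array was left out (0.88 without the first and 0.87 without the second, both with an adjusted p of 0.033), since all groups share 1 estimate of the spread. The cold effects of neither probe were shown to differ between tissues, with differences of -0.61 (adjusted p = 0.184) for the brighter and -0.31 (adjusted p = 0.695) for the dimmer. The probes thus had fold changes of opposite sign in brown fat and of the same sign in muscle. At room temperature brown fat exceeded muscle by a log2 difference of 1.00 on the brighter probe (adjusted p = 0.00138) and 2.68 on the dimmer (adjusted p = 0.000179). In the cold the differences were 0.39 (adjusted p = 0.0741) and 2.37 (adjusted p = 0.000351). The order of the 4 groups was brown fat above muscle on both probes, and in brown fat the neighbouring groups overlapped on the brighter probe.

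Gpihbp1, the endothelial carrier of the enzyme, was higher in cold brown fat. Its brighter probe read 11.97 and 12.16 in cold brown fat, against 11.57 and 11.61 in brown fat at room temperature. The groups did not overlap, and the 1.39-fold rise (interval 1.13 to 1.71; log2 0.47, SE 0.13) was just past the threshold (adjusted p = 0.0465). The second probe read 11.85 and 11.96 in the cold, against 11.38 and 11.68, also without overlap, and its log2 fold change of 0.38 (SE 0.15) missed the threshold (adjusted p = 0.140). The probes correlated at 0.995 over the 8 arrays. Of 10 endothelial markers none was higher in cold brown fat past the threshold, and Emcn, Tek and Ramp2 were lower, against 7.49% of all probes. The markers did not move together. Cldn5 read 11.06 and 10.42 in the cold, against 9.79 and 9.80, and Esam 12.07 and 11.80, against 11.68 and 11.65. Cdh5, Tie1 and Egfl7 were lower on both cold arrays without passing. Their summed signal was 18549 and 15943 in cold brown fat, against 20148 and 19475 in brown fat at room temperature. Without the first array of cold brown fat the call was lost, and the same held without the second, without either brown fat array at room temperature and without either muscle array at room temperature.

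In muscle Gpihbp1 read 10.15 and 10.42 in the cold, against 9.80 and 9.86 at room temperature, with a log2 fold change of 0.45 (SE 0.13, adjusted p = 0.106). The second probe gave 0.31 (SE 0.15, adjusted p = 0.307), and 0.16 without the second cold muscle array. The effects in the 2 tissues differed by 0.02 (interval -0.40 to 0.44, adjusted p = 0.962) on the brighter probe, so the muscle value was close to that in brown fat without passing the test. Brown fat exceeded muscle 3.39-fold at room temperature (log2 1.76, adjusted p = 2.85e-05) and 3.43-fold in the cold (log2 1.78, adjusted p = 2.96e-05). All 4 groups were thus ordered as cold brown fat, brown fat at room temperature, cold muscle and muscle at room temperature, with no overlap between neighbours on the brighter probe.

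Lmf1, the chaperone-like factor for lipase folding, moved little with temperature. It read 10.64 and 10.81 in cold brown fat, against 10.89 and 10.81 at room temperature (log2 fold change -0.12, interval -0.41 to 0.16, adjusted p = 0.556). In muscle it read 9.01 and 9.16 in the cold, against 9.04 and 9.23 at room temperature (log2 fold change -0.05, interval -0.34 to 0.24, adjusted p = 0.872). The temperature groups overlapped within each tissue, and the tissues were far apart. Brown fat exceeded muscle 3.28-fold at room temperature (adjusted p = 2.71e-05) and 3.12-fold in the cold (adjusted p = 3.43e-05).

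**Figure D3:**
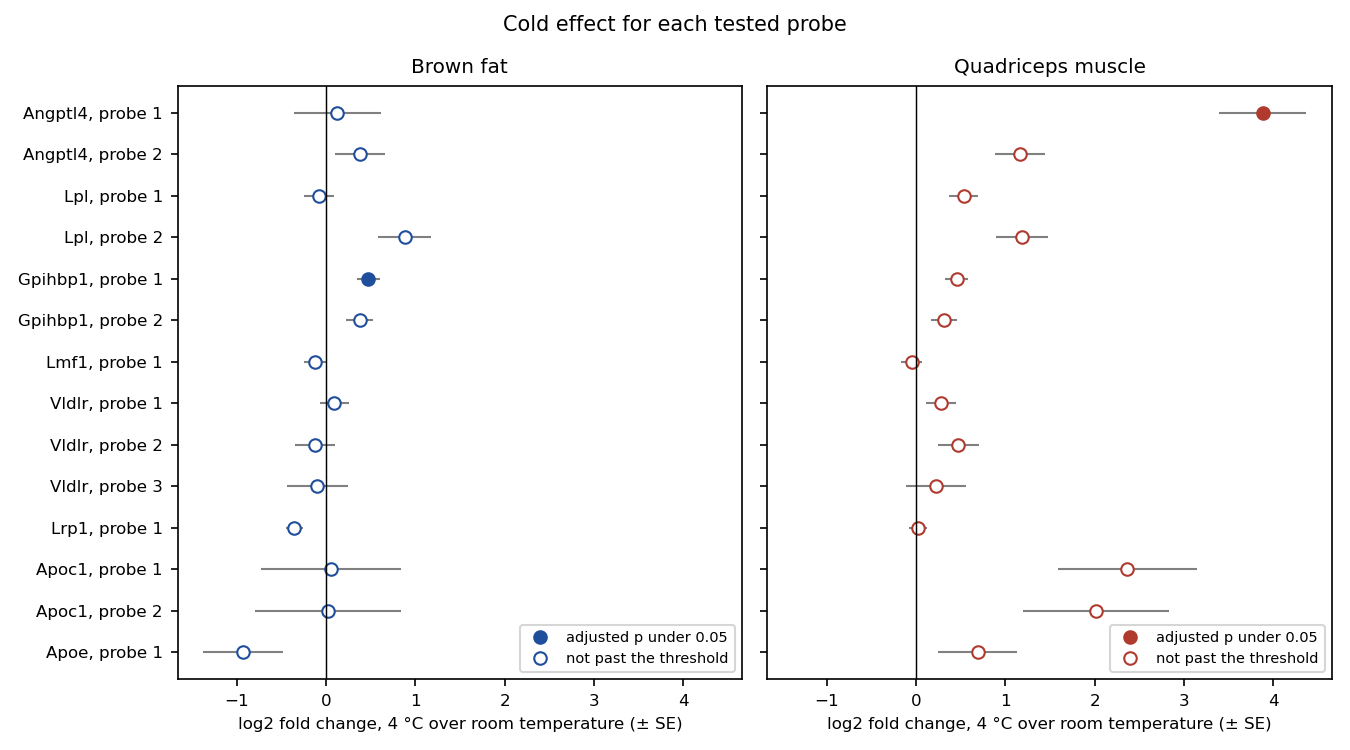
Log2 fold change of cold over room temperature (horizontal axis, bars are ± SE) for the 14 tested probes, in brown fat on the left and in muscle on the right. Filled points mark the brighter Gpihbp1 probe in brown fat (0.47) and the brighter Angptl4 probe in muscle (3.88), the probes past the threshold.

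Vldlr, a receptor that holds triglyceride-rich particles near the lipase, was the gene of the axis with less signal in brown fat than in muscle. Its brightest probe read 12.49 and 12.82 in cold brown fat and 13.60 and 13.62 in cold muscle (log2 difference -0.95, SE 0.17, adjusted p = 0.00178). At room temperature it read 12.65 and 12.48 in brown fat and 13.51 and 13.14 in muscle (-0.77, SE 0.17, adjusted p = 0.00496). The tissues did not overlap at either temperature. The second probe gave -1.03 in the cold (adjusted p = 0.00540) and -0.44 at room temperature (adjusted p = 0.128), and the third -0.87 (adjusted p = 0.0575) and -0.55 (adjusted p = 0.194).

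Cold effects on Vldlr were within the spread of the replicates or missed the threshold. The log2 fold changes of the 3 tested probes were 0.09, -0.12 and -0.10 in brown fat (adjusted p = 0.766, 0.776 and 0.890). In muscle they were 0.28, 0.47 and 0.22 (adjusted p = 0.406, 0.305 and 0.775). Without the second cold muscle array the muscle values of the 2 dimmer tested probes were 0.78 and 0.58, and without the first 0.17 and -0.14, none past the threshold. The probes correlated with each other at 0.785 to 0.899 over the 8 arrays, and all 4 carry the same transcript accession.

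Lrp1, the large endocytic receptor that clears remnants, read 7.33 and 7.42 in cold brown fat, against 7.78 and 7.68 in brown fat at room temperature. Both cold arrays lay below both others, and the log2 fold change of -0.35 (interval -0.59 to -0.12, SE 0.10) was just short of the threshold (adjusted p = 0.0541). In muscle it read 6.86 and 6.92 in the cold, against 6.85 and 6.90 at room temperature, and the groups overlapped (log2 fold change 0.02, interval -0.21 to 0.25, adjusted p = 0.949). The difference between the cold effects was -0.37 (SE 0.14, adjusted p = 0.173). Brown fat exceeded muscle 1.81-fold at room temperature (log2 0.86, adjusted p = 0.000225) and 1.40-fold in the cold (log2 0.49, adjusted p = 0.00388).

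Apoc1, a small apolipoprotein that inhibits lipolysis, had the largest tissue difference of the axis. It read 14.17 and 14.14 in brown fat and 7.16 and 7.78 in muscle at room temperature, a 103-fold difference (log2 6.68, SE 0.78, adjusted p = 0.000238), and the second probe gave a log2 difference of 6.69. In cold brown fat it read 14.34 and 14.07, close to the values at room temperature (log2 fold change 0.05, interval -1.78 to 1.89, adjusted p = 0.976). In cold muscle it read 8.41 and 11.27, so that the arrays of this group differed by more than those of any other group did. The log2 fold change in muscle was 2.37 (SE 0.78, adjusted p = 0.158) on the first probe and 2.02 (SE 0.82, adjusted p = 0.236) on the second. Without the second cold muscle array, on which the fat markers were high, it was 0.93, and without the first it was 3.78 and past the threshold. Apoc1 signal was 1.70% and 12.9% of the cold brown fat mean on the cold muscle arrays, against 0.668% and 1.08% at room temperature. The part of fat cells in these muscle values was not tested.

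Apoe, the receptor ligand made by fat cells and macrophages among others, read 11.22 and 10.43 in cold brown fat, against 11.62 and 11.88 in brown fat at room temperature. Both cold arrays were lower, the second more so than the first, and the log2 fold change of -0.93 (interval -1.98 to 0.12, SE 0.45) missed the threshold (adjusted p = 0.211). With the first array of cold brown fat and the second of cold muscle left out, it was -1.31 and past the threshold (adjusted p = 0.0130), the only one of 22 alternatives that called it, and there the spread of the lone cold brown fat array is taken from the other groups. Without that brown fat array alone it was -1.32 and not past the threshold (adjusted p = 0.186). Of 8 macrophage markers, Fcer1g and Cd14 were lower in cold brown fat past the threshold, against 7.49% of all probes. The summed signal of the list was 4241 and 2868, against 3778 and 4310 at room temperature. Between the cold arrays the widest gap was that of its brightest gene, Lyz2 (11.03 and 9.67), while Mrc1 and C1qa were higher on the second. Apoe was lower on the cold array with the lower macrophage sum, and the part of macrophages in it was not tested. In muscle Apoe read 9.0 and 10.39 in the cold, against 8.83 and 9.19, with overlap and a log2 fold change of 0.69 (SE 0.45, adjusted p = 0.448) that was -0.01 without the second cold muscle array. Brown fat exceeded muscle 6.70-fold at room temperature (log2 2.74, adjusted p = 0.00123). In the cold the log2 difference was 1.13 (adjusted p = 0.0600).

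Brown fat against muscle gave the broadest contrast of the axis. At room temperature 12 of the 14 probes were past the threshold, 11 higher and 1 lower in brown fat, against 65.7% of all probes, with a median log2 difference of 1.74 for the 14 probes and -0.01 for all. Every one of the 8 genes had a probe past the threshold at room temperature. In the cold it was 11 of 14, 9 higher and 2 lower, from 7 of the genes, against 63.5% of all probes, with medians of 1.64 and 0.07. Apoe and the brighter Lpl probe were past the threshold at room temperature and, in the main model, not in the cold. Among other fits of all 8 arrays, both passed in the cold with a replicate block within each tissue, and Apoe with strict detection on all arrays. In the cold both passed without the second cold muscle array (Apoe 1.82, Lpl 0.58) and without the second cold brown fat array (Apoe 1.52, Lpl 0.55), and Apoe passed with both arrays that stand apart left out (1.43). Of the brown fat arrays 3 of 4 also held muscle transcripts. With the first cold brown fat array, which lacked them, as the only one of its group and taken to vary as the others did, 13 of the 14 probes were past the threshold in the cold. Both brown fat arrays at room temperature held them, and the differences there without muscle transcripts were not tested.

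Genes whose levels were most like those of Angptl4 over the 8 arrays were Mt1 (Pearson's r of 0.993), Tmem45b (0.988), Arxes2 (0.987), Adipoq (0.983) and Orm1 (0.982). Those most like Lpl were Adipoq (0.987), Rhob (0.986), Pdk3 (0.984), Ss18 (0.982) and Cidec (0.980). These are descriptions over 8 arrays of 2 tissues, in which any gene that differs between the tissues correlates with any other. They were ranked on the brightest probe.

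Other genes of lipoprotein handling were counted by list, as a description, since the lists were chosen with earlier results of these data known. In cold brown fat 7.87% of all probes were higher and 7.49% lower, and in cold muscle 1.62% were higher and 1.90% lower. Among 15 listed regulators and processing factors of the lipase, 8 were tested, and in brown fat Apoc3, a further apolipoprotein that inhibits the enzyme, was 1.85-fold higher (log2 0.89, SE 0.10, adjusted p = 0.00356), and Hspg2, which encodes the heparan sulfate proteoglycan perlecan, was lower (-0.43, adjusted p = 0.0260). Apoc3 read 7.22 and 7.32 in cold brown fat, against 6.34 and 6.43 in brown fat at room temperature. None of the 8 passed in muscle. Angptl6, the tested relative of Angptl4 among 6 listed, did not pass in either tissue. Without the 2 arrays that stand apart, Apoc3 remained past the threshold (0.93) and Hspg2 did not (-0.45, adjusted p = 0.0795).

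Of 7 tested lipoprotein receptors and their adaptors, 2 were lower in each tissue, against 7.49% of all probes in brown fat and 1.90% in muscle, and none was higher. Scarb1, the high density lipoprotein receptor, was lower in both. It read 9.76 and 9.96 in cold brown fat, against 10.92 and 11.13 at room temperature, which is a log2 fold change of -1.17 (SE 0.18, adjusted p = 0.00784). Its muscle readings were 8.96 and 9.33 in the cold, against 10.55 and 10.23 (log2 fold change -1.24, SE 0.18, adjusted p = 0.0187), with no overlap in either tissue. Lrp12 was lower in brown fat (-0.89, adjusted p = 0.0182) and Lrp10 in muscle (-0.57, adjusted p = 0.0471). Without the 2 arrays that stand apart, Scarb1 and Lrp12 remained past the threshold and Lrp10 did not (-0.57, adjusted p = 0.0987). Of 4 other apolipoproteins, Apoa1 was higher in brown fat (0.54, adjusted p = 0.0375) and Apoa2 lower in muscle (-0.78, adjusted p = 0.0381), and neither passed without those arrays.

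Among 9 tested genes of fatty acid uptake, the transport protein gene Slc27a1 was lower in cold brown fat (log2 fold change -0.94, SE 0.20, adjusted p = 0.0249). The call was just lost without the first cold brown fat array (-1.09, adjusted p = 0.0524) and held without both arrays that stand apart (-1.09, adjusted p = 0.0128). The fatty acid receptor gene Cd36 read 6.82 and 7.84 in cold muscle, against 6.07 and 6.13 at room temperature, a log2 fold change of 1.23 that missed the threshold (adjusted p = 0.0712). Without the second cold array, on which the fat markers were high, it was 0.72 (adjusted p = 0.0760). None of 4 other lipases passed in either tissue.

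Targets of glucocorticoids, PPAR receptors, hypoxia and LXR were counted against the same background, in which 7.87% of all probes were higher in cold brown fat and 1.62% in cold muscle. These lists, too, were chosen with earlier results of these data known, so their counts are a description and no test. Of 12 tested glucocorticoid targets, 9 were higher and none lower in cold brown fat, with a median log2 fold change of 0.80, and 10 were higher and none lower in cold muscle, with a median of 1.41. Without the 2 arrays that stand apart the counts were 7 and 9. In brown fat Zbtb16 (2.26, adjusted p = 0.00124) and Cdkn1a (3.26, adjusted p = 0.00207) led by adjusted p, and in muscle Ddit4 (3.45) and Foxo1 (2.43), both with an adjusted p of 0.00123.

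Of 13 tested targets of the PPAR receptors, Pdk4 was higher in brown fat and Pdk4 and Ucp3 were higher in muscle, and no other passed. Ucp3, a mitochondrial carrier of muscle, read 10.73 and 10.65 in cold muscle, against 8.18 and 8.06 at room temperature (log2 fold change 2.57, SE 0.19, adjusted p = 0.00224). Pdk4, the kinase that shuts down glucose oxidation, read 14.33 and 14.35 in cold muscle, against 12.73 and 12.24 at room temperature (1.85, SE 0.16, adjusted p = 0.00398), and its log2 fold change in brown fat was 0.71 (adjusted p = 0.0271). The replicates of cold muscle lay close together for both genes, while those of Angptl4 lay far apart. Pdk4 in cold muscle read near the top of the range, and whether it was compressed there was not tested. Without the 2 arrays that stand apart, Ucp3 (2.61) and Pdk4 (1.84) remained past the threshold in muscle, and Pdk4 in brown fat did not (0.71, adjusted p = 0.0851). In brown fat that same fit put Ucp3 at -0.67, against -0.37 in the main model. There Ucp3 (lower) and Fgf21 (higher) passed, which neither did in the main model. Of 10 tested hypoxia targets, 3 were higher in brown fat, among them the glucose transporter gene Slc2a1 (1.01, adjusted p = 0.0218), and none passed in muscle. Without the 2 arrays that stand apart, 1 hypoxia target, Egln3, was higher in brown fat. None of 5 LXR targets passed in either tissue.

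**Figure D4:**
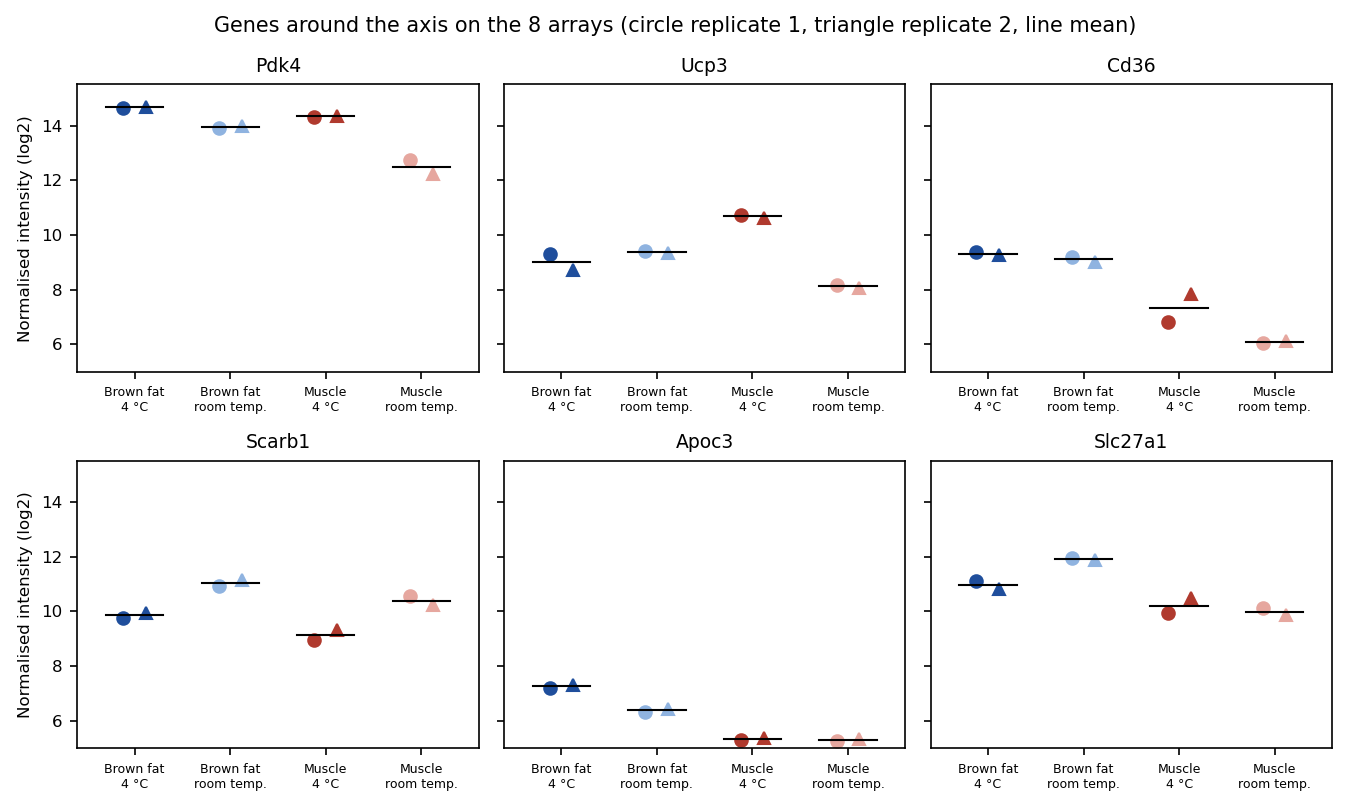
Normalised intensity (log2, vertical axis) of 6 genes around the axis in the 4 groups, 1 point per array, with the group mean as a line. Ucp3 and Pdk4 were higher on both cold muscle arrays than at room temperature, and Scarb1 was lower in the cold in both tissues.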

How the data were processed

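Per the labels' protocols, amplified RNA carried a biotin label and was read on Illumina bead arrays. Per the file headers, the deposited tables give 1 intensity per probe and array for 24607 probes, and a detection value, a fraction read as 1 minus a detection p-value because it rises with signal. The authors' processed intensity values, of which 32.8% lie below 0, served as an alternative. Which software and methods the authors used is not given in the sources used here.

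In R 4.3.3 with limma 3.58.1, raw intensities were corrected with normexp (negative controls inferred from the detection p-values), given an offset of 16, quantile normalized and put on the log2 scale. Quantile normalization fixes 1 overall distribution for both tissues, so levels are relative to it. A probe was tested, as its own row, if its detection p was below 0.05 on both arrays of any group (11946 probes). lmFit with 4 group means and eBayes (4 residual degrees of freedom plus 3.19) gave every contrast. Intervals are at the 95% level. The fit of the cold effect in muscle was tried on simulated log2 levels with known changes. No other step was tried that way.

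Gene names came from the platform annotation (20980 probes with 1 symbol, 1 with several, 3626 with none), and 20964 matched a RefSeq gene by identifier. All members were named, with the 2 smallest adjusted p past the threshold per list and cold effect, marker genes that moved with a member, and the 5 genes most like Angptl4 and Lpl. Members and lists were chosen with earlier results of these data known. Cd36, Angptl6 and Egln3 were named after their values were seen. Pathway lists used the brightest tested probe of each gene.

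Samples were grouped by their titles, whose replicate numbers for cold muscle run opposite to the descriptions. Deviations of same-numbered arrays correlated at -0.120 to 0.163 between groups, so the numbers were not taken to pair samples.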

Additional observations from a re-analysis of the deposited data

Results flagged for a closer look

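The brighter Angptl4 probe had a cold effect that differed between the tissues by the test of the difference itself: -3.76 on the log2 scale, brown fat minus muscle (SE 0.69, adjusted p = 0.0390 by limma), from 0.13 in brown fat and 3.88 in muscle. It kept its sign in all 21 alternatives that could be run, with values of -4.58 to -2.90 and adjusted p of 0.00111 to 0.144, and was past the threshold in 12 of them. Leaving out any 1 array other than those of cold muscle was among the alternatives that ended the call. The dimmer probe gave -0.79 and did not pass. No group held enough arrays to look for single outlying values.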

How the results depend on the processing

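Of 1481 values of the axis recomputed under up to 22 alternatives, none changed direction where a call was involved, 1424 kept their side of the threshold, 28 lost it and 29 gained it, and 36 values without a call changed sign. Probes past the threshold in cold brown fat (1 of 14) were 0 with the authors' processed values, median scaling, array weights, 4 arrays per fit or a replicate block within each tissue, and 2 with a larger offset, strict detection, 1 row per gene or both cold arrays that stand apart left out, with 0 to 2 when single arrays were left out. In cold muscle (1 of 14) they were 0 with 4 arrays per fit, 2 with median scaling or with a replicate block by the numbers of the descriptions, and 0 (without either muscle array at room temperature) to 5 (without the first cold muscle array) when single arrays were left out. For the difference between the cold effects (1 of 14) they were 0 with no filter on dim probes and with either of those replicate blocks, and 0 to 4 when single arrays were left out. For brown fat against muscle in the cold (11 of 14) they were 6 of 8 with 1 row per gene, which tests fewer probes, and at room temperature (12 of 14) 8 of 8 with 1 row per gene and 10 to 14 otherwise. The Angptl4 rise in muscle ranged from 3.03 to 4.70 when single arrays were left out and was 3.88 with 4 arrays per fit (adjusted p = 0.0622), and it was past the threshold in 19 of 22 alternatives. With the replicate block of the titles it was 3.88 (adjusted p = 0.0157), and that block changed no other count of these probes. Angptl4 in brown fat lay between -0.11 and 0.36 and was never called.

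The Gpihbp1 rise in brown fat was past the threshold in 9 of 22 alternatives (0.37 to 0.57), Lrp1 in brown fat in 4 (-0.64 to -0.26) and the Apoc1 rise in muscle in 2 (0.93 to 3.78). Over all probes, calls in cold brown fat fell to 200 under median scaling, against 1835, which also shifted the median of all probes to -0.11, and to 1020 with 4 arrays per fit. In cold muscle they were 82 and 106, against 420, and 220 with the replicate block of the titles. Under median scaling the median of all probes shifted to -0.19 in muscle, and the calls of Lrp1 and of the brighter Lpl probe between tissues were lost. The causes were not tested. The blocks of the descriptions and within tissues and the list counts without both arrays were chosen after seeing the data. A block by chip was not run, since the headers name no chip. With 2 arrays per group, small effects near the threshold cannot be settled here.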
